A study of Mus musculus with 4 samples.

Results

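The C/EBP genes encode CCAAT/enhancer binding proteins, and their transcripts were followed through the start of fat cell formation in 3T3L1 cells. The members were taken by name, as every array probe whose RefSeq accession belongs to Cebpa, Cebpb, Cebpd, Cebpg or Cebpz. They are 5 genes of the 20956 named genes on the array, and each is read by 1 probe printed in 1 spot. Total RNA came from 4 cultures of 3T3L1 cells, a mouse fibroblast line that becomes fat cells under hormones, grown in medium with 10% serum. The groups were control preadipocytes and preadipocytes with lamp2a knocked down, each at day 0, when the cells were confluent and not yet induced, and at day 2 of adipogenesis. Day 2 cultures had received 160 nM insulin, 250 nM dexamethasone and 0.5 mM isobutylmethylxanthine, and no hormone-free culture was measured at day 2, so the hormones and time cannot be told apart. LAMP2A is the splice form of a lysosomal membrane protein that takes single cytosolic proteins into lysosomes for breakdown. The labels do not say how the knockdown was made or whether the cells are a clone. Since every group is a single array, differences have no replicate check and no test could be run.

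C/EBP proteins bind DNA as dimers through a basic region and a leucine zipper (bZIP). In differentiating preadipocytes C/EBPbeta and C/EBPdelta come early, induced by cAMP and by glucocorticoids, and they switch on Pparg and Cebpa, whose products keep each other active and turn on the genes of the fat cell. C/EBPgamma has the zipper but no activation domain of its own and acts as a dimer partner of other bZIP proteins. The product of Cebpz bears the family name but is not a bZIP protein: it was found as a CCAAT-binding factor, and its relatives in yeast work in ribosome assembly.

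Levels are processed signals divided by the 75th percentile of their array, and they are compared between arrays for the same probe, never between probes. A gene is called where 2 arrays differed by at least 2-fold. The share of spots well above background was 67.4% for control cells at day 0 and 78.7% to 88.6% on the other arrays, and dim genes read lower on the former, so shares of called genes are also given for 11394 bright genes, whose mean level lay above that of 95% of olfactory receptor genes. Slide 1 carried the array of control cells at day 0 and slide 2 the other 3, so slide cannot be told from group in the day 0 knockdown comparison, in the control time course or in their difference between days. The day 2 knockdown comparison and the knockdown time course lie within slide 2. For Lamp2, the targeted gene, the probe for NM_001017959 read 4.13-fold (day 0) and 3.51-fold (day 2) lower with knockdown, and the probe for NM_010685 1.29-fold and 1.08-fold lower. The splice form read by each probe is not stated in the files. Of the cell type markers, 7 of 7 fibroblast genes were bright, with summed levels of 561 to 760 times the percentile. The 3 of 4 blood cell markers that were named on the array summed to 1.91 to 2.80, with Ptprc and Adgre1 dim and Csf1r bright. Endothelial markers summed to 2.91 to 3.87, with Kdr and Pecam1 bright, 2 of 3. Muscle markers summed to 0.275 to 0.664, with Myod1 bright, 1 of 3. Epithelial markers summed to 0.0280 to 0.0719, with Epcam not well above background on any array. Sums of different types rest on different probes and are no measure of cell shares. Fewer cells of a kind and less RNA per cell cannot be told apart in such samples.

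All members were well above background on the 4 arrays and none was saturated. The scanner software's own error was about 10% of each signal, or 0.20 on a log2 ratio of 2 arrays, which is the error given below. For probes printed 10 times, at levels near each member, the median spot SD of the log2 ratio was also taken. Over members and comparisons these medians lay between 0.024 and 0.075. Both measure error within arrays and neither contains the spread between cultures.

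RefSeq promoter sequences of assembly GRCm38.p6 could be matched to Cebpa, Cebpb and Cebpg. The 250 bases before the start are shown for the C/EBP gene of the early wave, Cebpb, and for that of the late wave, Cebpa, since these had the largest knockdown ratios of the members at day 2. Capitals mark every match, on either strand, to 7 motifs: CCAAT, the core TGACG of the cAMP response element, the C/EBP core TTNNGNAA, the E-box CACGTG, the TATA box TATAAA, the glucocorticoid element core AGAACA and the GC box GGGCGG. The Cebpb window is chr2:167688665-167688914 on the plus strand and the Cebpa window is chr7:35119043-35119292 on the plus strand.
Cebpb: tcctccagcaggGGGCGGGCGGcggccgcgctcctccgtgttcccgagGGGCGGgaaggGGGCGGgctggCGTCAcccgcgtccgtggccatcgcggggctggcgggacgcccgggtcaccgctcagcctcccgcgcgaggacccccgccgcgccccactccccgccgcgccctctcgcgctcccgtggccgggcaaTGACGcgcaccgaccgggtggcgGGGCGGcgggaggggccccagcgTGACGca
Cebpa: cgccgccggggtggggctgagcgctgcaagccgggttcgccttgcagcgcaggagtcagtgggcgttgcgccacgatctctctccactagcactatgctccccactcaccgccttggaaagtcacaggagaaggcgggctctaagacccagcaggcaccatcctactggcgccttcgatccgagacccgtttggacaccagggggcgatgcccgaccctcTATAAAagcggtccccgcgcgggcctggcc

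The Cebpb window holds 3 TGACG matches, 1 of them on the reverse strand where it reads CGTCA, and 5 GGGCGG matches, of which the pair farthest upstream overlap. Its GC content is 81.6%, against a median of 52.4% over the 32851 RefSeq promoters of the same length. TGACG occurred in 17.8% of those promoters and GGGCGG in 32.7%. In the Cebpa window, with a GC content of 66.4%, the searched letters matched at TATAAA alone, a motif found in 12.4% of promoters, 30 to 25 bases before the start. For Cebpg, chr7:35056567-35056816 on the minus strand, CCAAT matched at 2 places on the reverse strand, and 33.9% of promoters hold that motif. The shares for the others were 36.9% for TTNNGNAA, 6.02% for CACGTG and 16.1% for AGAACA. These are matches of letters in a short window and say nothing of binding.

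**Figure D1:**
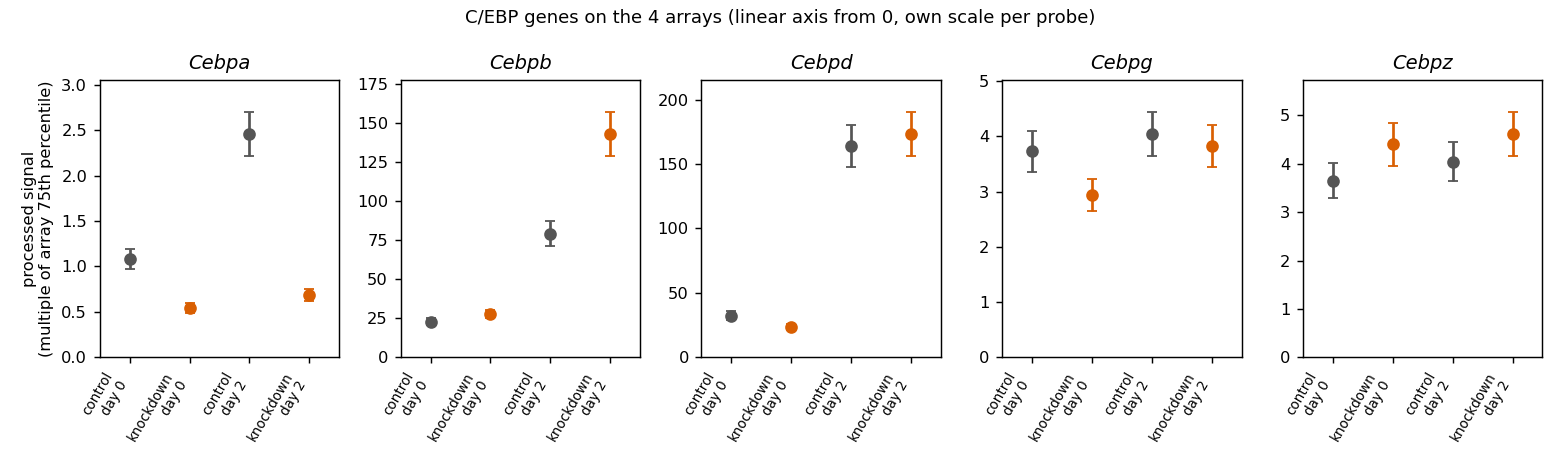
Level of each C/EBP gene on the 4 arrays, as a multiple of the array's 75th percentile on a linear axis that starts at 0, with the software's error of about 10% as bars and 1 array per group. Cebpb and Cebpd stand high on both day 2 arrays, Cebpa is high on the control day 2 array at 2.46, and Cebpg and Cebpz stay between 2.94 and 4.62.

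Cebpb, the early activator that answers to cAMP, was read at 22.8 (day 0) and 79.2 (day 2) times the 75th percentile in control cells, and at 27.7 (day 0) and 143 (day 2) in knockdown cells. In this order, control day 0 and 2 and then knockdown day 0 and 2, which is kept below, the processed signals were 36200, 98168, 46207 and 157928. Both day 2 arrays thus lay above both day 0 arrays, and at each day the knockdown array lay above the control array. At day 0 that step, a log2 ratio of 0.29, lies between 1 and 2 software errors and crosses slides. From day 0 to day 2 Cebpb was 3.48-fold higher in control cells (log2 ratio 1.80 ± 0.20, software error) and 5.16-fold higher in knockdown cells (2.37). These log2 ratios exceeded those of 98.0% and 99.1% of bright genes. Knockdown against control, Cebpb was 1.22-fold higher at day 0 and 1.81-fold higher at day 2, the latter a log2 ratio of 0.85 that fell short of the 2-fold size and exceeded that of 95.7% of bright genes.

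Cebpd, the early activator induced by glucocorticoids, had levels of 32.4 and 164 in control cells and of 23.7 and 173 in knockdown cells, from signals of 51500, 203406, 39486.5 and 191237. The day 2 arrays were again high in both kinds of cells, and they differed by less than the software error. Cebpd was 5.06-fold higher at day 2 than at day 0 in control cells (log2 ratio 2.34 ± 0.20) and 7.31-fold higher in knockdown cells (2.87), past 99.2% and 99.5% of bright genes. At day 0 the knockdown array was 1.37-fold lower than the control array, and at day 2 it was 1.06-fold higher, a log2 ratio of 0.08. That ratio changed sign under 2 other processing settings, quantile normalization among them at -0.04. The range of Cebpd over the 4 arrays, 7.31-fold, was the widest of the members.

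Cebpa, whose product works with Pparg to establish the fat cell, was read at 1.08 and 2.46 in control cells and at 0.540 and 0.685 in knockdown cells. Its processed signals were 1720, 3049.6, 899.6 and 755. Both knockdown arrays lay below both control arrays, and the control day 2 array stood highest. In rising order the arrays were knockdown day 0, knockdown day 2, control day 0 and control day 2, with log2 steps of 0.34, 0.66 and 1.18. The lowest step lies between 1 and 2 software errors.

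Against control cells, Cebpa read 3.59-fold lower with knockdown at day 2 (log2 ratio -1.84 ± 0.20), within slide 2 and lower than in all but 1.30% of bright genes. At day 0 it was 2.00-fold lower (-1.002), which lies at the calling size itself. Under 2 other settings it fell below 2-fold, at log2 ratios of -0.93 and -0.999. Over time Cebpa was 2.27-fold higher at day 2 in control cells (1.18 ± 0.20) and 1.27-fold higher in knockdown cells (0.34). Subtracting the knockdown log2 ratio at day 0 from that at day 2 gave -0.84 with a software error of 0.29, a factor of 1.79 that did not reach 2-fold. Pparg, its partner, had levels of 3.14, 7.84, 3.17 and 2.93, so with knockdown it was 1.01-fold higher at day 0 and 2.67-fold lower at day 2. Of these partners, Cebpa read lower on the knockdown array at day 0 and Pparg read alike on both arrays then. For that day slide cannot be told from knockdown, and each side is 1 array.

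Cebpg, the dimer partner without an activation domain, was read at 3.73, 4.04, 2.94 and 3.82, from signals of 5930, 5015, 4899 and 4214. Knockdown cells at day 0 were the lowest, and the other 3 arrays differed by less than the software error. With knockdown Cebpg read lower by 1.27-fold at day 0 and by 1.06-fold at day 2, and it was 1.08-fold and 1.30-fold higher at day 2 in control and knockdown cells.

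Cebpz, the CCAAT-binding factor outside the bZIP family, was read at 3.65, 4.05, 4.40 and 4.62, from signals of 5800, 5017, 7331 and 5092. Neighbouring arrays in the order of its levels differed by less than the software error. Arrays farther apart in that order could differ by more, as in knockdown against control at day 0 (log2 ratio 0.27 ± 0.20). Its folds were 1.21 and 1.14 higher in knockdown cells at day 0 and day 2, and 1.11 and 1.05 higher at day 2 in control and knockdown cells. Over the 4 arrays Cebpg spanned 1.37-fold and Cebpz 1.27-fold, while Cebpa spanned 4.55-fold and Cebpb 6.29-fold. Among bright genes, 26.9% had a narrower range than Cebpg and 15.1% one narrower than Cebpz.

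**Figure D2:**
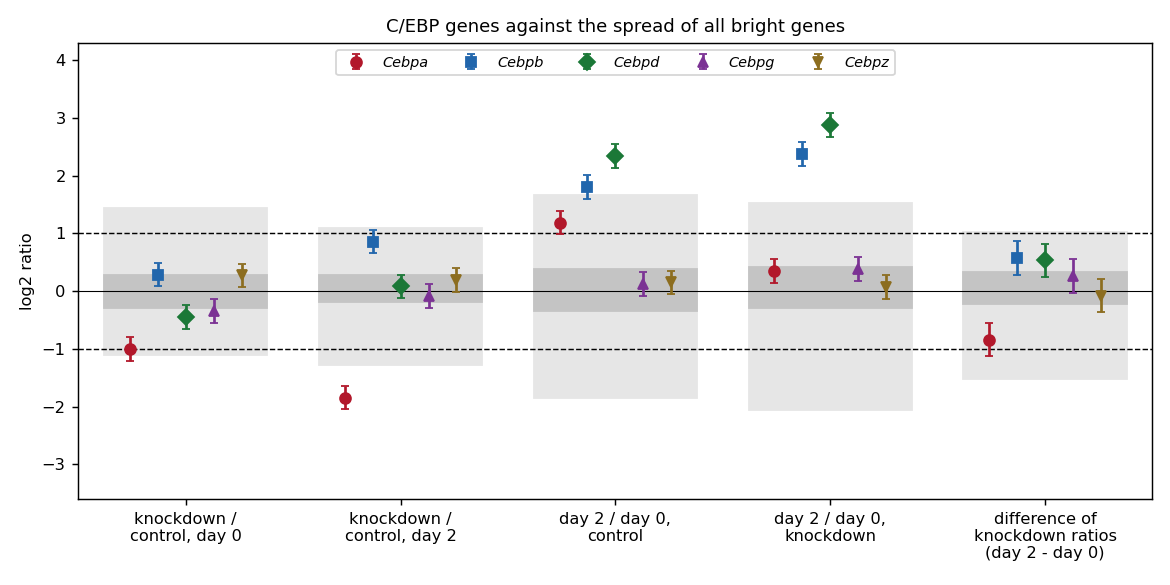
Log2 ratios of the 5 C/EBP genes in the 5 comparisons, with the software's error as bars, the middle 50% of bright genes in dark grey, their central 95% in light grey and 2-fold as dashed lines. Cebpa lies at -1.84 in knockdown against control cells at day 2, and Cebpb and Cebpd lie at 1.80 to 2.87 in both time courses.

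Counted by comparison, 3 of 5 members, Cebpd, Cebpb and Cebpa, were at least 2-fold higher at day 2 in control cells and none was lower. Of 18657 compared genes 20.0% were higher and 8.15% lower, and of bright genes 7.60% and 7.75%. In knockdown cells 2 of 5, Cebpd and Cebpb, were higher and none lower, against 5.01% higher and 9.07% lower of 19198 compared genes, or 6.17% and 9.22% of bright genes. At day 0, 1 of 5, Cebpa, was lower in knockdown cells and none higher, against 18.4% higher and 4.20% lower of 19270 compared genes, or 5.63% and 3.10% of bright genes. At day 2, again 1 of 5, Cebpa, was lower and none higher, against 2.89% higher and 4.10% lower of 18561 compared genes, or 3.02% and 3.61% of bright genes. No member passed 2-fold in the difference between the knockdown ratios of the days, where 2.90% of 15465 compared genes were higher and 16.9% lower, or 2.66% and 6.63% of bright genes. The median log2 ratio of the members was 1.18 in the control time course, 0.38 in the knockdown time course, -0.34 and 0.08 for knockdown against control at day 0 and day 2, and 0.26 for the difference. Over all compared genes these medians were 0.19, 0.00, 0.12, -0.00 and -0.03, and over bright genes 0.02, 0.08, -0.02, 0.04 and 0.08. Every array enters 2 of the 4 direct comparisons, so these counts are not independent of each other.

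The members also differed in which other genes had a like profile over the 4 arrays, measured as the root mean square difference of log2 levels after each gene was centred, over 11389 bright genes well above background on all arrays. Nearest to Cebpa were Cdh2, which encodes N-cadherin, at 0.0709, the lipid phosphatase gene Plpp1 at 0.0850 and the kinase gene Map3k6 at 0.102. With knockdown Cdh2 read lower by 1.77-fold at day 0 and by 3.36-fold at day 2, and Plpp1 was 2.24-fold and 3.42-fold lower, although another Plpp1 probe read -0.12 against 0.34 in the knockdown time course. Nearest to Cebpd were the proteoglycan gene Vcan at 0.113, the xanthine dehydrogenase gene Xdh at 0.115 and the kinase gene Sik2 at 0.125. Under the other scalings each of these genes kept a rank of 1 to 6. Nearest to Cebpb were Mtor, which encodes a growth-controlling kinase, at 0.0373, 1700017B05Rik at 0.0773 and Gm10336 at 0.0854, and these ranged from rank 1 to 29 under the other scalings. Among the members themselves, Cebpd was the 159th nearest gene to Cebpb, and Cebpa the 8367th. With 4 arrays such likeness is a description of these arrays.

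For the gene lists that follow, the background is the shares and medians given above, over all compared genes and over bright genes. No list was tested. Genes of related bZIP proteins, which can pair with C/EBP proteins or bind like sites, were more often lower than higher at day 2 in control cells. Of 9 such genes, 5 were at least 2-fold lower at day 2 in control cells (4 after normexp) and 2 higher (1 after quantile or cyclic loess), with a median log2 ratio of -1.22, or -0.60 after normexp and -0.86 over the 8 bright genes. Ddit3, which encodes CHOP, a partner that keeps C/EBP dimers off their usual sites, had levels of 13.1, 3.38, 4.48 and 2.86. It was high in control cells at day 0, and it read lower with knockdown by 2.92-fold on that day and by 1.18-fold at day 2. Atf3, a stress-induced factor, read 2.42-fold lower with knockdown at day 0 and 1.01-fold higher at day 2. Nfil3, a repressor, had levels of 6.01, 37.3, 4.80 and 72.3, with 6.21-fold and 15.1-fold higher readings at day 2 in control and knockdown cells. Dbp, a clock-controlled activator, was 3.92-fold lower at day 2 in control cells and 1.04-fold lower in knockdown cells, and so on day 2 its level was 3.27-fold higher with knockdown. Its relative Hlf read 2.51-fold higher with knockdown at day 0, and Tef spanned 1.42-fold over the 4 arrays. Atf4, the main factor of the amino acid and stress response, spanned 1.37-fold, and Atf5 was 2.33-fold lower at day 2 in control cells. Cebpe, the family member of granulocytes, was dim, 2.93-fold lower at day 2 in control cells and not well above background on the knockdown day 2 array. In knockdown cells the list had 1 of 9 higher and 1 lower over time, with 2 lower after quantile and 3 after cyclic loess normalization and 0 lower among bright genes. Knockdown against control, it had 1 higher and 2 lower at day 0 and 1 higher and none lower at day 2, with medians of -0.32 and 0.39.

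Among 13 regulators and kinases that act on the C/EBP genes or proteins, few passed 2-fold. Klf5, which the early C/EBP proteins induce and which acts with them on Pparg, had levels of 0.518, 3.77, 1.10 and 2.84, and was 7.27-fold higher at day 2 in control cells and 2.57-fold higher in knockdown cells. Stat5a was 2.55-fold and 2.02-fold higher at day 2, and on that day it was 2.34-fold lower with knockdown. Klf4, an early inducer of Cebpb, read 2.30-fold lower with knockdown at day 2. Stat3 was 1.64-fold and 2.39-fold higher at day 2 than at day 0 in control and knockdown cells, and at day 2 it was 1.27-fold higher with knockdown. Nr3c1, the glucocorticoid receptor, spanned 1.38-fold over the 4 arrays and Creb1, the cAMP-response factor, 1.28-fold. The counts higher and lower were 2 and 0 in the control time course, 3 and 1 in the knockdown time course, 1 and 0 for knockdown against control at day 0 (0 and 0 after quantile normalization), and 0 and 2 at day 2.

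In a list of 11 genes drawn up as restraints on C/EBP proteins or controls of their isoforms, 4 passed 2-fold upward with knockdown at day 2. None passed downward, and after quantile or cyclic loess normalization 3 passed upward. The 4 were Gata2 at 6.56-fold, Trib1 at 2.49-fold, Gata3 at 2.27-fold and Id2 at 2.07-fold. Whether Id2 acts on C/EBP proteins was not tested. GATA2 and GATA3 bind C/EBP proteins and hold back preadipocytes, and Trib1 encodes a pseudokinase that brings C/EBPalpha to the ubiquitin ligase COP1. Gata2 had levels of 1.55, 0.244, 1.67 and 1.60, so the control day 2 array alone was low. Trib1 had levels of 1.87, 9.80, 4.86 and 24.4, with 5.25-fold and 5.03-fold higher readings at day 2 in control and knockdown cells and a 2.60-fold higher reading in knockdown cells at day 0. Trib3, a stress-induced relative, read 3.99-fold lower with knockdown at day 0 and 11.0-fold and 4.34-fold lower at day 2 in control and knockdown cells. Celf1, which steers the choice of the Cebpb start codon, spanned 1.51-fold. Over time the list had 3 higher and 3 lower in control cells and 2 and 2 in knockdown cells, and at day 0 it had 1 higher and 1 lower in knockdown cells, or 2 higher under 4 of the other settings at the same 2-fold size.

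**Figure D3:**
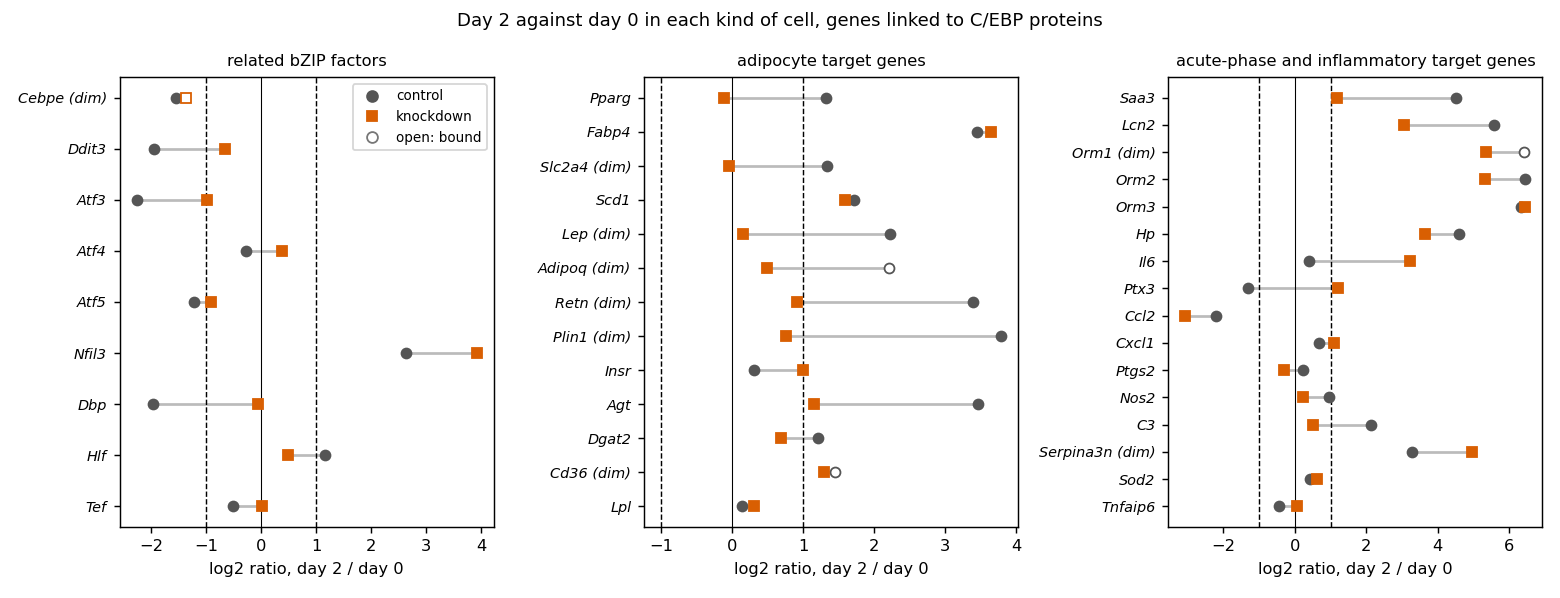
Day 2 to day 0 log2 ratios of the related bZIP factors, the adipocyte target genes and the acute-phase and inflammatory target genes, in control cells (grey circles) and knockdown cells (orange squares), with open symbols for bounds and dashed lines at 2-fold. Saa3 lies at 4.51 in control and 1.18 in knockdown cells and Pparg at 1.32 and -0.11, while Il6 lies at 0.39 and 3.22.

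Fat cell genes downstream of C/EBP proteins were mostly higher at day 2 in control cells. Of 13 compared, 11 passed 2-fold upward in control cells (9 after normexp, quantile or cyclic loess processing) and 4 in knockdown cells (3 after normexp, 5 without detrending, 6 after quantile), with none lower in either. Of the 7 bright ones, 5 did so in control and 3 in knockdown cells, and the dim ones read low on the control day 0 array. The fourteenth, Pck1, was not well above background on any array. At day 2, 5 of 13 (4 after normexp) were lower in knockdown than in control cells and 1 was higher, and the median log2 ratio was -0.40 (-0.10 after normexp). Of the 7 bright ones 2 were lower and 1 higher, with a median of 0.23. Agt, which encodes angiotensinogen, had levels of 1.20, 13.2, 1.32 and 2.93, high in control cells at day 2, and was 4.51-fold lower in knockdown cells on that day. The dim genes Retn, which encodes resistin, Plin1, which encodes perilipin, and Adipoq, which encodes adiponectin, were 3.61-fold, 4.14-fold and 3.07-fold lower. Fabp4, the fatty acid carrier, went the other way, with levels of 0.570, 6.23, 3.04 and 38.2, and with knockdown was 5.34-fold (day 0) and 6.14-fold (day 2) higher. Scd1, a fatty acid desaturase, was 1.81-fold and 1.66-fold higher in knockdown cells, and Lpl, the lipoprotein lipase gene, spanned 1.63-fold over the 4 arrays. The dim gene Cd36, a fatty acid transporter, was 2.46-fold higher at day 2 than at day 0 in knockdown cells. In control cells it was at least 2.73-fold higher over time, and at day 2 it was 1.53-fold lower with knockdown. At day 0, 3 of 13 (1 of 7 bright ones) were higher in knockdown cells, Fabp4 and the dim genes Lep and Slc2a4, the last at a log2 ratio of 1.35 that turned to -0.14 after cyclic loess.

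Acute-phase and inflammatory genes, classical targets of C/EBPbeta and C/EBPdelta, were more often higher than lower at day 2 in both kinds of cells. At day 2 in control cells, 8 of 16 passed 2-fold upward and 2 downward, and 10 were higher and 1 lower in knockdown cells. Lcn2, which encodes lipocalin 2, had levels of 0.299, 14.2, 0.413 and 3.41, and Saa3, a serum amyloid gene, 0.648, 14.8, 1.12 and 2.55. Both were high on the control day 2 array, and in knockdown cells on that day they read 4.18-fold and 5.80-fold lower. Il6, a cytokine gene, had levels of 0.390, 0.513, 0.130 and 1.21, and Ptx3, which encodes a pentraxin, 11.9, 4.85, 7.68 and 17.8. Both were lower in knockdown cells at day 0, by 3.00-fold and 1.56-fold, and higher at day 2, by 2.36-fold and 3.67-fold. The list's largest knockdown ratio at day 2 was that of the dim gene Serpina3n, which encodes a protease inhibitor from a cluster of close copies, with levels of 0.0281, 0.273, 0.0827 and 2.59. It was highest in knockdown cells at day 2 and read higher with knockdown by 2.95-fold at day 0 and by 9.48-fold at day 2. Over time it was 9.73-fold higher in control and 31.3-fold higher in knockdown cells. Hp, which encodes haptoglobin, was 23.9-fold and 12.4-fold higher at day 2 in control and knockdown cells. Orm1, Orm2 and Orm3 are near-identical copies whose probes may share transcripts. Orm2 and Orm3 were 40.4-fold to 87.7-fold higher at day 2, and Orm1, not well above background in control cells at day 0, was at least 85.2-fold higher there and 40.9-fold higher in knockdown cells. Knockdown against control, 6 were higher and 1 lower at day 0, and 4 higher and 2 lower at day 2, with the day 0 count of higher genes at 3 after normexp or quantile processing and 4 after cyclic loess.

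C/EBP proteins take part in clonal expansion early and in cell cycle arrest later. Of 12 cell cycle genes linked to them, 6 were at least 2-fold lower at day 2 in knockdown cells and 1, Ccnd1, in control cells, with none higher in either and medians of -1.13 and -0.52. The counts were 7 and 2 after cyclic loess or with the median of all probes, and 8 and 5 at a 1.5-fold size. Ccnd1, the G1 cyclin, had levels of 30.0, 10.2, 36.8 and 4.51 and read 2.26-fold lower with knockdown at day 2. Mki67, a proliferation marker, had levels of 5.43, 3.07, 12.8 and 2.71, highest in knockdown cells at day 0. Mcm3, a replication helicase gene, was 3.87-fold lower at day 2 in knockdown cells and 1.85-fold lower in control cells. At day 0, 3 of 12, Cdk6, Ccna2 and Mki67, were 2.36-fold to 2.57-fold higher in knockdown cells. Cdkn1a, the inhibitor that C/EBPalpha stabilises, read lower with knockdown by 1.78-fold at day 0 and by 1.18-fold at day 2.

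Genes around the CCAAT-binding members differed little. A list of 18 ribosome assembly genes was drawn up because yeast relatives of Cebpz work in that process. Whether their products partner with that of Cebpz was not tested. None of them passed 2-fold in any comparison. Their median log2 ratios were 0.15 and -0.06 for knockdown against control at day 0 and day 2. In the control and knockdown time courses they were 0.31 and 0.02. None of the 3 genes of NF-Y, the main factor of CCAAT boxes, passed 2-fold either. Cebpz itself lay at 0.27, 0.19, 0.15 and 0.07 in these comparisons.

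**Figure D4:**
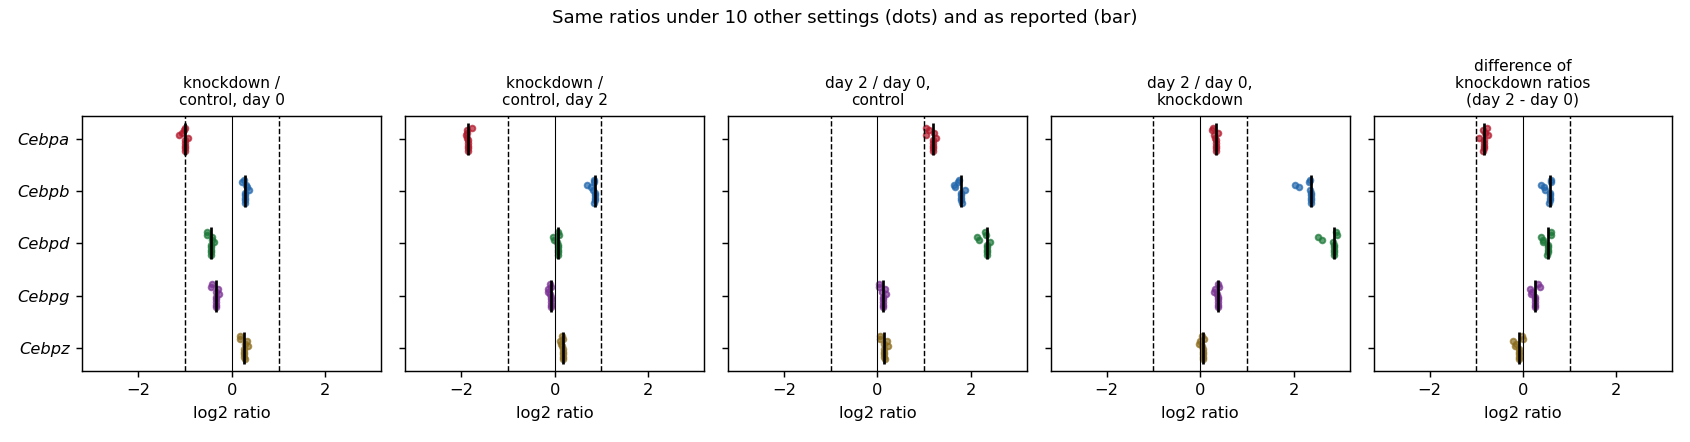
Log2 ratio of each C/EBP gene in each comparison as reported (bar) and under 10 other processing settings (dots), with dashed lines at 2-fold. The ratios of Cebpa at day 2 lie between -1.89 and -1.77 and those of Cebpd in the knockdown time course between 2.52 and 2.92.

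Across the 10 other settings the day 2 knockdown ratio of Cebpa ranged from -1.89 to -1.77 and that of Cebpb from 0.69 to 0.85. In the control time course Cebpa ranged from 1.04 to 1.26, Cebpb from 1.64 to 1.87 and Cebpd from 2.13 to 2.42. In the knockdown time course Cebpb ranged from 2.02 to 2.37 and Cebpd from 2.52 to 2.92. The difference of Cebpa between the days ranged from -0.94 to -0.75, and those of Cebpb and Cebpd from 0.38 to 0.61 and from 0.39 to 0.61. The settings on dim genes, on the median of all probes and on kept outlier spots could not move these ratios. Each member has 1 probe in 1 spot, with no outlier flag and well above background on every array.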

How the data were processed

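RNA of 4 cultures was hybridised with Cy3 to Agilent mouse arrays, 1 per group, per the labels. The deposited files hold processed signals, which are intensity values on a linear scale. Per the file headers, the authors read them with Agilent's Feature Extraction 10.7.3.1, with background subtracted and detrended on every array but the knockdown day 0 array, and with no normalization between arrays. From these, the level was computed as log2 of the signal minus log2 of the array's 75th percentile over 59305 non-control spots. Repeat spots were averaged without outlier spots. Of 55681 probes, 27656 were named by RefSeq accession in a table of assembly GRCm38.p6, giving 20972 genes, of which 20956 had usable spots, and the brightest probe stood for a gene. A side not well above background gave a bound. No replicate exists, so no test was run and 2-fold calls a gene. The members and gene lists were chosen with earlier results of these data known. Named genes were, per list and comparison, up to 4 with the largest differences past 2-fold, every related bZIP factor, the 3 nearest profiles of each member spanning 2-fold, and Lamp2, Pparg and Fabp4. Other genes, among them Adipoq, Cdkn1a and those named for a narrow span, were picked for their known role after their values were seen. The calling code was run on simulated arrays with spot error and set changes larger than 2-fold. These held no spread between cultures or slides, so the run checked the code alone. Tools were limma 3.58.1 in R 4.3.3, and numpy 2.4.6, pandas 2.3.3 and matplotlib 3.10.9 in Python 3.11.15.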

Additional observations from a re-analysis of the deposited data

How the results depend on the processing

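Of 250 ratios of the C/EBP genes under other settings, 248 kept their side of the 2-fold size. The exceptions were Cebpa at day 0, with log2 ratios of -0.93 (percentile over probes well above background on all arrays) and -0.999 (percentile without outlier spots, chosen after seeing the data), which leave 0 members lower. Part of the agreement was fixed in advance. Each member has 1 probe in 1 spot, with no outlier flag and well above background on every array. The settings on dim genes, on the median of all probes and on kept outlier spots thus could not change its ratios. At a 1.5-fold size 1 member, Cebpb, was higher in knockdown cells at day 2, and 1, Cebpa, lower in the difference between days. The signs of the small ratios of Cebpd at day 2, Cebpz in the knockdown time course and Cebpz in the difference turned in 2, 2 and 1 settings. The cause was not tested.

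Counts over all genes moved more. Genes higher in knockdown cells at day 0 numbered 1340 with normexp, 1078 with quantile, 991 with loess, 5504 with no filter, 5632 at 1.5-fold and 641 among bright genes (added after seeing the data), and genes lower 1306 with quantile, 1726 with loess, 1724 at 1.5-fold and 353 among bright genes. At day 2, genes lower numbered 454 with normexp, 1290 with no filter, 1710 at 1.5-fold and 411 among bright genes, and genes higher 1488 at 1.5-fold and 344 among bright genes. In the control time course, higher genes numbered 1843 with normexp, 1239 with quantile, 1147 with loess, 5654 with no filter, 5899 at 1.5-fold and 866 among bright genes, and lower ones 2637 with loess, 2712 at 1.5-fold and 883 among bright genes. In the knockdown time course they numbered 2492 higher and 3136 lower at 1.5-fold, and 1051 lower among bright genes. For the difference between days, higher genes numbered 890 with quantile, 1224 with loess, 1215 with no filter and 1382 at 1.5-fold, and lower ones 1214 with normexp, 1068 with quantile, 922 with loess, 5904 with no filter, 3998 at 1.5-fold and 755 among bright genes.

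Of called genes, 81.4% were higher in knockdown cells at day 0, 45.2% after quantile and 36.5% after loess, which lower the median of all genes by 0.12. In the control time course the shares were 71.1%, 36.5% and 30.3%, with medians shifted by -0.19, and for the difference 14.7%, 45.5% and 57.0%. Of 910 ratios of named genes, 890 kept their side and 1 reversed, Slc2a4 at day 0, with -0.14 after loess. Of 960 list counts, 57 moved by over 1.5 times. No paired analysis was possible because each group has 1 array, and for the same reason no array could be left out. Having 1 array per group limits all results. The members were well above background on every array, and each rests on 1 probe in 1 spot.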
